A study of Mus musculus with 21 samples.

Results

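The 462 regions described here carried a C/EBPα peak in both hepatocyte libraries from mice that lack Arid1a in the liver, and in neither library from mice that keep it, and they lay away from the ends of genes. They are called gained regions. They were chosen by merging the peaks of 4 C/EBPα lists wherever peaks shared at least 1 bp. A merged region was taken when both KO lists and no WT list had a peak in it and when it lay more than 1 kb from both annotated ends of every protein-coding gene of the RefSeq mouse annotation. They made up 1.70% of the 27244 merged regions, and 4.06% of the 11380 regions away from gene ends that both KO lists held. At any position, 749 regions or 5.27% of 14222 were gained, the other 287 at gene ends. A peak list decided membership, so the C/EBPα values of these regions are given as a description, without a test.

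The study mapped proteins on DNA by ChIP-seq, in which chromatin is pulled down with an antibody and its DNA is sequenced, in hepatocytes perfused from mouse livers at postnatal day 90 (strain C57/B6 and 129 mix). KO mice had the genotype Arid1a Fl/Fl; Alb-cre, in which Cre recombinase under the albumin promoter deletes the floxed gene in hepatocytes, and WT mice were Arid1a Fl/Fl without Cre, so both groups carried the floxed alleles. C/EBPα was mapped in 2 KO and 2 WT libraries, dimethylated lysine 4 of histone H3 (H3K4me2) in 3 KO and 3 WT libraries, and ARID1A through its V5 tag in 1 library from V5-Arid1a mice. Of the 21 samples, these 11 each had a list of peaks, and the 10 input samples were not analysed here.

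C/EBPα is a basic leucine zipper transcription factor that binds as a dimer and is abundant in differentiated hepatocytes, where it occupies promoters and enhancers of metabolic and plasma protein genes. ARID1A is a DNA-binding subunit of the SWI/SNF complex, which moves and ejects nucleosomes with energy from ATP and is recruited to enhancers. H3K4me2 marks promoters and enhancers that are active or poised. A gained region with H3K4me2 in WT hepatocytes is therefore a place that already carried an enhancer or promoter mark in mice with Arid1a, while one without it did not have a called mark there.

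Although none of the gained regions was within 1 kb of an annotated end of a protein-coding gene, 29 of the 462 (6.28%, 95% interval 4.24 to 8.89) overlapped a RefSeq promoter window, which runs from 250 bases before to 50 bases after a transcript start. In 17 regions at least 1 such window belonged to a protein-coding gene with an internal start, and in 12 it belonged to long noncoding RNA genes alone. Kept regions, which have a peak in all 4 C/EBPα lists and also lie away from gene ends, overlapped such a window in 325 of 9598 cases (3.39%). Lost regions, the mirror image with peaks in WT alone, did so in 40 of 3018 cases (1.33%). The C/EBP consensus was searched as TTGCNNAA, which reads TTNNGCAA on the other strand, so both strands were covered. It occurred in the windows of 4 of the 29 gained regions (13.8%, 3.89 to 31.7), of 114 of the 325 kept regions (35.1%, 29.9 to 40.5) and of 12 of the 40 lost regions (30.0%, 16.6 to 46.5). Gained regions at gene ends had it in 26 of 190 cases (13.7%, 9.14 to 19.4). Of all 32851 RefSeq windows, 10.8% held the motif. Where the whole window lay inside the region, the counts were 4 of 16 gained regions (25%, 7.27 to 52.4) and 88 of 207 kept ones (42.5%, 35.7 to 49.6), so the intervals overlapped. The windows also differed in base composition. The median GC content and number of CpG dinucleotides were 55.0% and 11 in the gained set and 50.3% and 5 in the kept set. They were 52.7% and 7 over all windows, and 58.7% and 19 for gained regions at gene ends. These windows and the motif were chosen after the data were seen, and the sequences of the regions outside them were not analysed here.

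For each of the 4 gained regions with a match, 1 window comes first with the match in capitals (a second window of E430024I08Rik holds the same match), and 3 windows without one follow because they belong to the widest gained region or to genes of the fixed lists. All are RefSeq sequences of GRCm38.p6, the assembly that mm10 names, read 5′ to 3′ along the transcript.

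Lpin2 (chr17:71204404-71204703, plus strand): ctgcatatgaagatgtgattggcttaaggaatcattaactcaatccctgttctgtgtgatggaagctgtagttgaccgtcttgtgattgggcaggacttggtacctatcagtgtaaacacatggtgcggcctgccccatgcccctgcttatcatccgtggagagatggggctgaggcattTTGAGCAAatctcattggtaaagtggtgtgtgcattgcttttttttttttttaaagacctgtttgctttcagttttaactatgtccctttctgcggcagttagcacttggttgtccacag
E430024I08Rik (chr13:74462920-74463219, minus strand): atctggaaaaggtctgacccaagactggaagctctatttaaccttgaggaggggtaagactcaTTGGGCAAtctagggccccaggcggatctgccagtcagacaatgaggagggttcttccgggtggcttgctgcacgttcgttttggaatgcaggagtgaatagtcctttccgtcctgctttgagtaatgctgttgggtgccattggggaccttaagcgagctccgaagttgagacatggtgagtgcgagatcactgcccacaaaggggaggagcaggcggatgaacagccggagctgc
Gm30843 (chr6:141875820-141876119, plus strand): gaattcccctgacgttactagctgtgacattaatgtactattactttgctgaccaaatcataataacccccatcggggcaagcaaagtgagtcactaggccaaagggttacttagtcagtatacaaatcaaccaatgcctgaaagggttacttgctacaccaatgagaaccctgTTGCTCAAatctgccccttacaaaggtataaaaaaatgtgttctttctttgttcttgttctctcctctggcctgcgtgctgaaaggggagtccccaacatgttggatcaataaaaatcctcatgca
Wapl (chr14:34673678-34673977, plus strand): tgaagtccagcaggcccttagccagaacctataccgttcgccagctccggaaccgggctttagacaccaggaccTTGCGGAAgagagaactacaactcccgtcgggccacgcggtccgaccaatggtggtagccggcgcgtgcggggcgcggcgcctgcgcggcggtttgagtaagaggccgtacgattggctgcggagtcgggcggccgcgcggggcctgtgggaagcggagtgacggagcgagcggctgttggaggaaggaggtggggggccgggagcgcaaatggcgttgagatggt
Gm32063 (chr13:41235796-41236095, plus strand): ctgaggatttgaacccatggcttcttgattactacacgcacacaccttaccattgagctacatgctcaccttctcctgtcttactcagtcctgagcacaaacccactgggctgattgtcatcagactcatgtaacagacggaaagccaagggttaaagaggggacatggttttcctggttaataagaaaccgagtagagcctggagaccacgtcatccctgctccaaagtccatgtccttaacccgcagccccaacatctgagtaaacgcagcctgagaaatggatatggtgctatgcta
Arntl (chr7:113207215-113207514, plus strand): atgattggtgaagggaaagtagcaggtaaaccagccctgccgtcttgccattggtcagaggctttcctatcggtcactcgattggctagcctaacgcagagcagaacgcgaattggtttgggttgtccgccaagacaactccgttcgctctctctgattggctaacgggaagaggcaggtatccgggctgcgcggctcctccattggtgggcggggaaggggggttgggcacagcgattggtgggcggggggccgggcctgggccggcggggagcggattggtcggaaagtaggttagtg
Sult1a1 (chr7:126676369-126676668, minus strand): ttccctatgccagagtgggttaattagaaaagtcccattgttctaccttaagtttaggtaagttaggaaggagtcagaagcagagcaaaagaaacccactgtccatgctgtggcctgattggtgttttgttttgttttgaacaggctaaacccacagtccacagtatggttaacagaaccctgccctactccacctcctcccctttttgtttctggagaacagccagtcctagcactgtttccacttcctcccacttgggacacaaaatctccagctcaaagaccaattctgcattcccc

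The Lpin2 window is an internal start of a gene for a phosphatidate phosphatase of triglyceride synthesis, and its region contains the whole window with the match TTGAGCAA. The region at E430024I08Rik, a long noncoding RNA, held TTGGGCAA, and the one at Gm30843, another, held TTGCTCAA. The Wapl region, at an internal start of a gene for a cohesin release factor, held TTGCGGAA in a window of 67.0% GC with 35 CpG dinucleotides. Gm32063 is a noncoding transcript that starts inside the widest gained region. Arntl encodes the clock factor BMAL1, and Sult1a1 a sulfotransferase of drug conjugation. No match in these 3 windows says only that these letters are not in the window.

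The gained regions ranked below kept ones in peak width. The deposited C/EBPα lists give no peak strength, so the width of a peak was ranked within its list. Gained regions had a median width percentile of 29.7 in KO list 1 and 30.8 in KO list 2, against 56.0 and 58.9 for kept regions in the same lists. Their median peak was 358 bp and 338 bp wide, against 442 bp and 428.5 bp for kept regions. Other regions absent from 1 genotype were also narrow: gained regions at gene ends had median percentiles of 35.2 and 43.3 in KO lists 1 and 2, and lost regions 32.9 and 39.5 in WT lists 1 and 2. The mean percentile over both KO lists reached from 1.15 to 98.4 with a median of 31.6. Of the 462 regions, 42 had a mean percentile of at least 80 and 133 one under 20. Both KO lists placed a region within 10 percentile points of each other in 190 cases (41.1%), and the median gap was 14.0 points. Across regions the 2 percentiles had a Pearson r of 0.583 and a Spearman rho of 0.519. This is a description over 462 regions of the same 2 libraries.

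**Figure D1:**
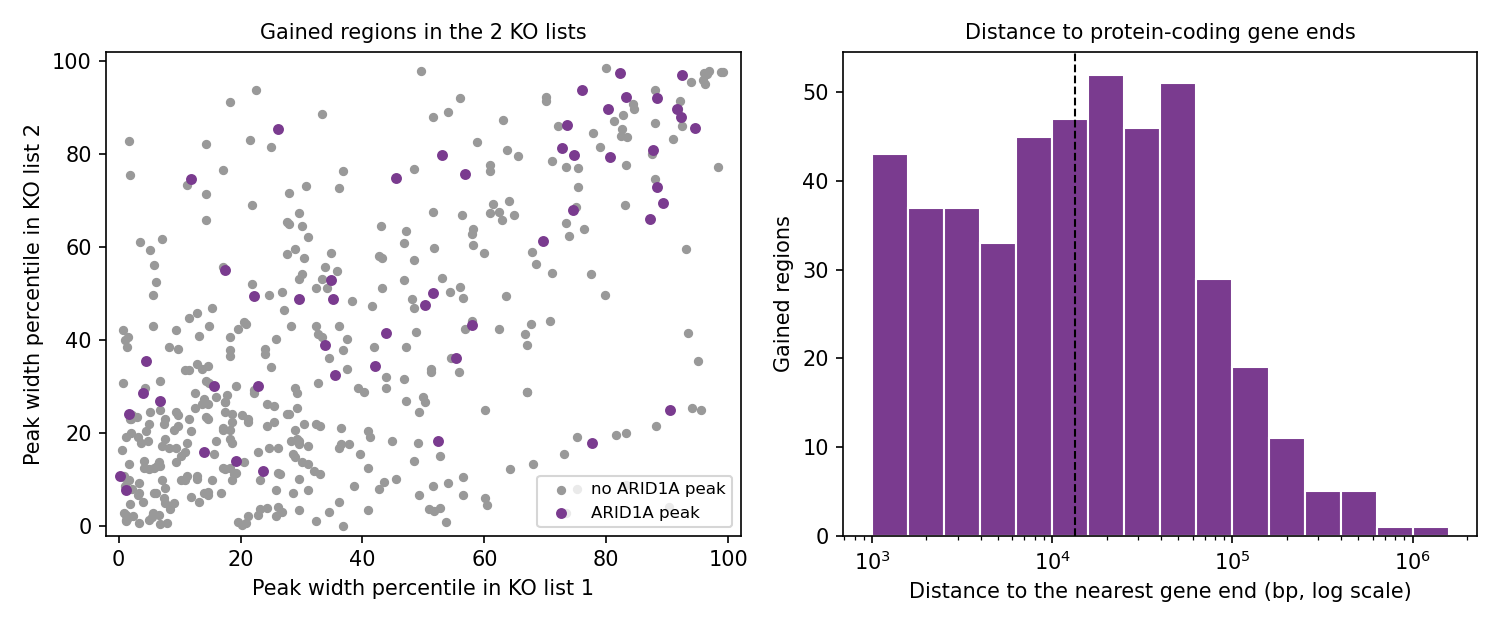
Left, each point is 1 of the 462 gained regions, placed by the width percentile of its C/EBPα peak in KO list 1 (horizontal) and KO list 2 (vertical), with the 51 regions that have an ARID1A peak in purple. Right, the number of gained regions by distance to the nearest end of a protein-coding gene in bp on a log scale, with the median of 13412 bp as a dashed line; most points sit at low percentiles in both lists.

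Membership rested on the second list of each genotype to unequal degrees. When candidates were picked with 1 KO and 1 WT list, the unused lists could be read without having been used. Of 2501 candidates with a peak in KO list 1 and none in WT list 1, 65.3% (63.4 to 67.2) had a peak in KO list 2 and 61.7% (59.8 to 63.6) had one in WT list 2. Picking with KO list 1 and WT list 2 gave 1165 candidates, with a peak in KO list 2 for 52.4% and in WT list 1 for 17.9%. Picking with KO list 2 and WT list 1 gave 3421, with a peak in KO list 1 for 47.7% and in WT list 2 for 59.3%. Picking with KO list 2 and WT list 2 gave 1630, with a peak in KO list 1 for 37.5% and in WT list 1 for 14.5%. The unused KO list was therefore ahead of the unused WT list in 3 of the 4 choices, and behind it where KO list 2 was set against WT list 1. KO lists 1 and 2 held 16178 and 17781 peaks, against 17733 and 23646 in WT lists 1 and 2, so WT list 2 was the longest. Each choice leaves 1 list per genotype, so no test was made.

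**Figure D2:**
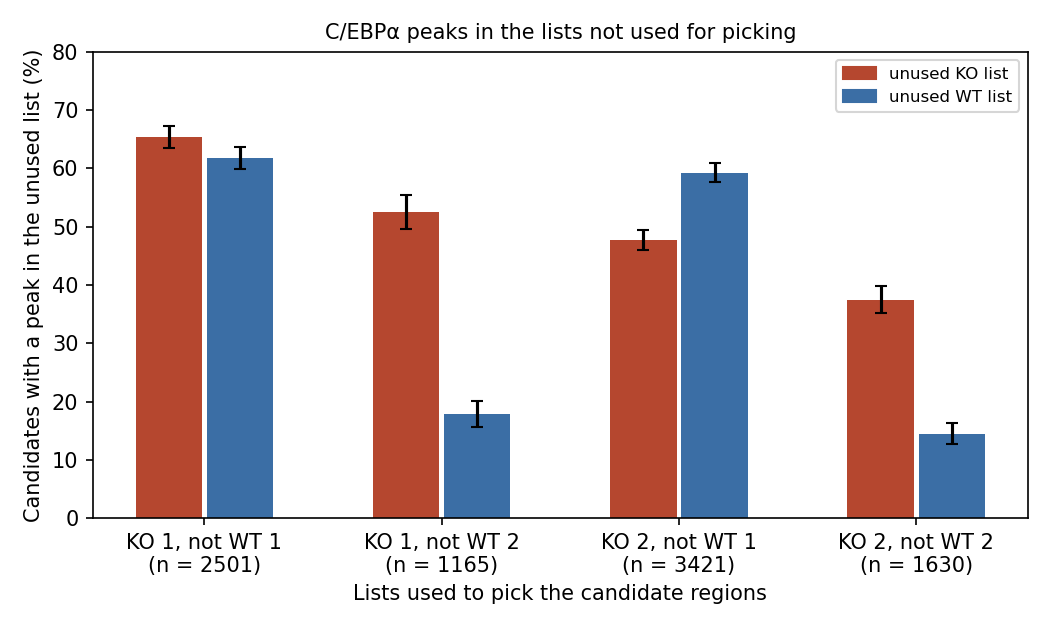
Bars give the percentage of candidate regions, each picked with 1 KO and 1 WT list as named under the bars, that had a C/EBPα peak in the unused KO list (red) and in the unused WT list (blue), with exact binomial 95% intervals over regions. The unused KO list stands higher in 3 choices and lower, at 47.7% against 59.3%, in the choice of KO 2 and not WT 1.

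Absence from the WT lists can also reflect peaks that were left out before deposit. Peak names in each C/EBPα list run along the genome with gaps, and 40.02% to 40.07% of the numbers are present. Between the WT peaks that flank a gained region, a median of 3 numbers was missing in each WT list. For 8 gained regions in WT list 1 and 5 in WT list 2 no number was missing. For 0 of 462 was this so in both lists, which allows a share of up to 0.795%. None of the 462 can therefore be said to have had no WT peak before that step. In the deposited lists, 418 of the 462 had no WT peak within 500 bp, and the rest had one.

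Of the gained regions, 78.6% carried an H3K4me2 peak in at least 1 WT library, against 74.9% of all regions away from gene ends and 89.2% of kept regions. H3K4me2 libraries were not used to choose the regions. An H3K4me2 peak overlapped 47.2%, 78.1% and 55.4% of the gained regions in KO libraries 1, 2 and 3, against 63.2%, 75.5% and 57.8% in WT libraries 1, 2 and 3. The mean was 60.2% ± 16.0 in KO and 65.5% ± 9.10 in WT (SD, n = 3 each). KO library 1 was the lowest of all 6 and KO library 2 the highest, so the KO values enclosed the WT values. The difference of -5.27 percentage points was smaller than the spread within KO (exact permutation test over libraries, two-sided, p = 0.7, where the smallest p that 3 against 3 libraries allow is 0.1). The H3K4me2 lists were of unequal length. They held 24908, 54544 and 175797 peaks in KO libraries 1, 2 and 3, against 34849, 61246 and 49802 in WT libraries 1, 2 and 3. With the strongest peaks at equal list size the difference was -6.20 points (exact permutation p = 0.7). The part of list length in the share of each library was not tested.

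Per region, 363 of the 462 (95% interval of the share 74.5% to 82.2%) had an H3K4me2 peak in at least 1 WT list. All 3 WT lists marked 231 (50.0%), against 39.2% of all regions away from gene ends and 54.9% of kept regions. All 6 lists marked 161 regions (34.8%), against 30.4% of kept and 3.15% of lost regions. No list marked 70 of them (15.2%), against 7.67% of kept and 31.5% of lost regions. As many KO as WT lists marked 291 (63.0%), while 57 (12.3%) had more KO than WT lists and 114 (24.7%) fewer. The share with more was 9.20% for kept, 7.19% for lost and 9.30% for all regions away from gene ends. The share with fewer was 39.0% for kept, 46.8% for lost and 37.7% for all regions away from gene ends. Marks shared by the 3 KO lists and missing from WT were found at 0 gained regions, against 0.00872% of all 22929 regions away from gene ends. Marks shared by the 3 WT lists and missing from KO were also found at 0, against 1.41%. In 29 regions (6.28%) a mark was present in some KO list and no WT list, against 3.17% of kept and 5.14% of lost regions. KO library 2 marked 19 of these 29. In 15 (3.25%) the mark was in some WT list and no KO list, against 7.28% of kept and 28.6% of lost regions. WT library 2 marked 12 of these 15.

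The fraction of each region under an H3K4me2 peak gave the same picture. Its mean was 35.6%, 73.0% and 42.8% in KO libraries 1, 2 and 3, against 54.4%, 69.8% and 47.7% in the WT libraries. Genotype means of 50.5% ± 19.8 in KO and 57.3% ± 11.3 in WT (SD, n = 3 each) were closer to each other than the KO libraries were among themselves (exact permutation p = 0.6, two-sided). Cover was above every WT library in every KO library at 0 of 462 regions, against 0.0785% of all regions away from gene ends. It was below every WT library in every KO library at 1, against 3.26%. That one lay inside Ralgapa2, whose product is a subunit of a GTPase-activating complex, and its cover was 0%, 17.5% and 11.8% in KO libraries and 33.0%, 48.7% and 73.8% in WT libraries. It was named after its values were seen.

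**Figure D3:**
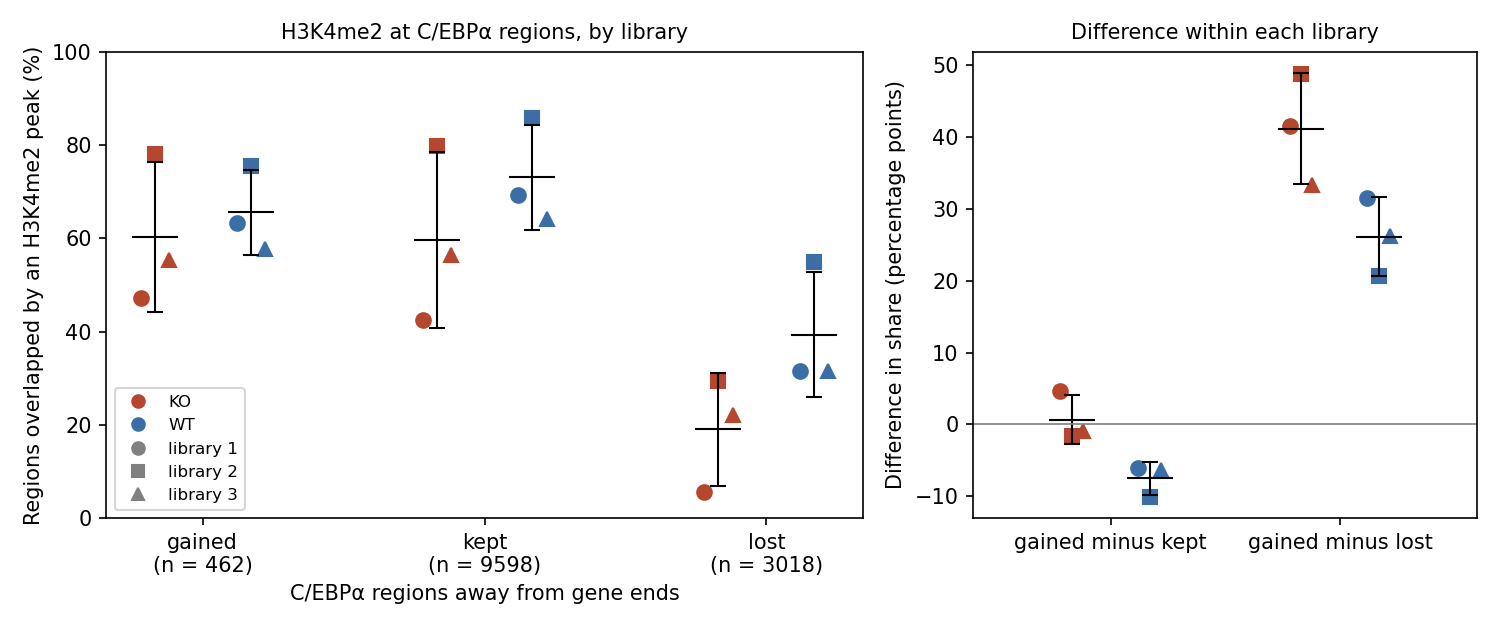
Left, the percentage of gained, kept and lost C/EBPα regions away from gene ends that an H3K4me2 peak overlapped, 1 point per library (KO red and WT blue, shape giving the library number), with the mean and SD of 3 libraries in black. Right, the same shares as differences within a library in percentage points; for gained minus kept, the KO points lie between -1.67 and 4.60 and the WT points between -10.1 and -6.07.

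The difference in share between gained and kept regions of the same library was higher in KO than in WT. The share of gained regions with the mark minus that of kept regions was 4.60, -1.67 and -0.986 percentage points in KO libraries 1, 2 and 3, against -6.07, -10.1 and -6.41 points in WT libraries 1, 2 and 3. Every KO value was above every WT value. The means of 0.650 ± 3.44 points in KO and -7.54 ± 2.26 points in WT (SD, n = 3 each) differed by 8.19 points (exact permutation p = 0.1, the smallest possible; 0.433 after Benjamini-Hochberg adjustment over the 13 H3K4me2 tests on gained regions). The kept regions themselves had 59.6% ± 18.8 in KO and 73.1% ± 11.2 in WT, a difference of -13.5 points. Against lost regions, the difference within a library was 41.6, 48.8 and 33.3 points in KO and 31.6, 20.6 and 26.2 points in WT. These groups also did not overlap, and the means were 15.1 points apart (exact permutation p = 0.1; adjusted 0.433). Against gained regions at gene ends the contrast was -1.43 points (exact permutation p = 1). The median percentile of −log10 q gave contrasts of -1.36 points with kept (exact permutation p = 0.5) and -2.10 points with lost regions (exact p = 0.9). At a stricter H3K4me2 peak threshold the contrast with lost regions was 2.80 points (exact permutation p = 0.8), while that with kept regions was 8.66 points (exact p = 0.1). With the strongest peaks at equal H3K4me2 list size they were 3.80 points with lost (exact permutation p = 0.7) and 5.17 points with kept regions (exact p = 0.1). With at least 50% of the region covered they were 7.70 points (exact permutation p = 0.4) and 6.93 points (exact p = 0.1).

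Where the mark was present, its peaks at gained regions ranked higher and were broader than at kept regions. The median within-list percentile of the authors' −log10 q was 50.9, 72.4 and 83.5 in KO libraries 1, 2 and 3 and 62.5, 75.7 and 68.1 in the WT libraries. The lowest value came from the shortest list (KO library 1, 24908 peaks) and the highest from the longest (KO library 3, 175797 peaks). KO and WT means differed by 0.172 percentile points (exact permutation p = 1). Within a library, the gained median was above the kept median by between 8.27 and 14.5 points, in 6 of 6 libraries (mean 10.99 ± 2.31, SD; exact sign-flip test over libraries, two-sided, p = 0.0312, the smallest possible and the same after adjustment over 4 tests). Median widths of the H3K4me2 peaks over gained regions were 1206.5, 2742 and 1478.5 bp in KO and 1963.5, 2762 and 1593 bp in WT, and exceeded those over kept regions by 595.7 bp on average, in 6 of 6 libraries (exact p = 0.0312). They exceeded those over lost regions by 1226 bp on average, again in 6 of 6 (exact p = 0.0312). These 4 sign-flip tests were not among those planned and were adjusted apart from the 13 tests above. All 6 libraries read the same regions, so these p-values measure only the agreement of libraries and not a spread between regions. Gained regions at gene ends ranked higher still, at 72.7, 88.3 and 91.3 in KO libraries 1, 2 and 3 and 81.8, 90.4 and 83.6 in the WT libraries. Their median H3K4me2 peak widths lay between 1665 and 3591 bp. The gained regions away from gene ends also lay nearer to gene ends than kept ones, as given further on. The part of that in their higher ranks and widths was not tested.

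Marker genes of other liver cells differed between the H3K4me2 libraries, most of all those of endothelial cells. A peak at a gene end was present for 10 of 10 hepatocyte markers in all 6 libraries. For 7 endothelial markers it was present for 0, 7 and 2 in KO libraries 1, 2 and 3, and for 2, 7 and 2 in WT libraries 1, 2 and 3. Stellate markers counted 1, 3 and 2 of 5 in KO and 3, 4 and 3 in WT, biliary markers 1, 2 and 2 of 4 in KO and 2 in each WT library, and Kupffer cell and leukocyte markers at most 1 of 7. C/EBPα peaks lay at 6 of 10 hepatocyte markers in KO lists 1 and 2 and WT list 1, and at 7 in WT list 2. At the markers of the other cell types, C/EBPα lists had no peak except at Sox9 in WT list 2. Both libraries numbered 2 stood apart in the endothelial markers, and not in the other lists. Without these 2 libraries the gained share was 9.20 points lower in KO and the contrast with kept regions was 8.05 points (exact permutation p = 0.333 for both, the smallest that 2 against 2 allow). In bulk chromatin, fewer cells with a mark and less of it per cell cannot be told apart.

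ARID1A was rarer at gained than at kept regions. In the single V5 library, a peak overlapped 51 of 462 gained regions (11.04%, 8.33 to 14.3), against 34.3% of kept and 6.06% of lost regions. The share was 18.7% over all regions away from gene ends and 3.14% for gained regions at gene ends. All 51 were among the 363 gained regions with H3K4me2 in at least 1 WT list (14.0%, 10.6 to 18.1). Among the 99 without it there was 0, which allows a share of up to 3.66%. Of kept regions without that mark, 12.4% (10.5 to 14.6) had ARID1A. By width percentile of the KO peaks in 5 bands from narrow to wide, 6.02%, 6.85%, 12.2%, 21.6% and 26.2% of gained regions had an ARID1A peak, against 11.9%, 17.3%, 29.6%, 45.8% and 52.2% of kept regions. Kept regions weighted to the widths of the gained ones came to 24.5%. Where ARID1A was present, its own peak ranked alike by width, at a median percentile of 55.1 for gained and 56.3 for kept regions. A wider circle of 10 kb held an ARID1A peak for 35.5% of gained, 49.6% of kept and 16.6% of lost regions. The V5 list also holds 40.01% of its peak numbers, so a region without an ARID1A peak is one where none was called or kept, and no share here shows that ARID1A was absent. These intervals cover counting of regions only, since ARID1A had no replicate.

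H3K4me2 followed the same order. From the narrowest to the widest band, the mean share over 3 libraries at gained regions was 39.8%, 58.9%, 73.7%, 74.5% and 83.3% in KO and 45.1%, 62.8%, 78.1%, 82.4% and 92.1% in WT. Kept regions had 33.6%, 44.2%, 56.6%, 67.1% and 80.2% in KO and 46.6%, 58.7%, 71.5%, 80.6% and 91.0% in WT. In every band the gained regions were above the kept ones in KO. In WT they were below them in the narrowest band and above them in the other 4. These band means were not tested. With kept regions weighted to the widths of the gained ones, the contrast between genotypes was 8.45 points (exact permutation p = 0.1).

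**Figure D4:**
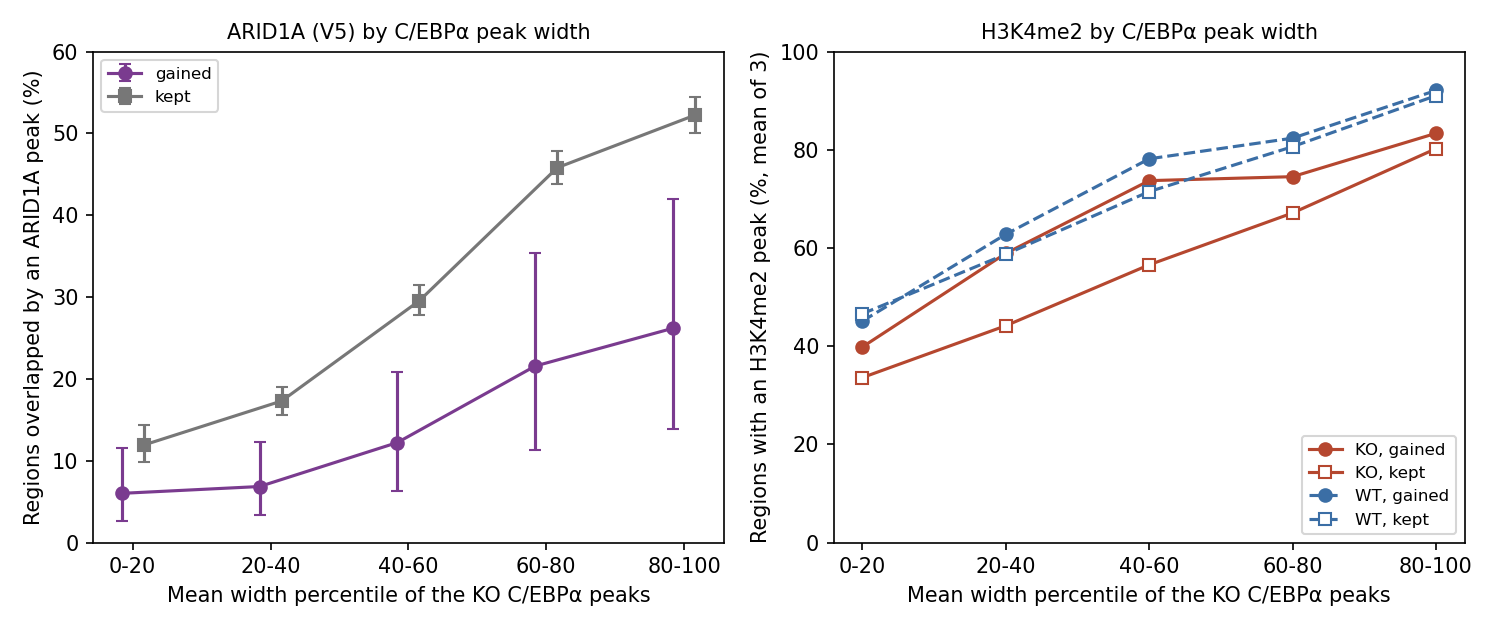
Left, the percentage of gained (purple) and kept (grey) regions with an ARID1A peak, by band of the mean width percentile of the KO C/EBPα peaks, with exact binomial 95% intervals. Right, the percentage with an H3K4me2 peak as the mean of 3 libraries (KO red solid, WT blue dashed; filled for gained, open for kept); gained regions stay below kept ones for ARID1A in every band, from 6.02% against 11.9% to 26.2% against 52.2%.

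Regions just outside the rule show how gained regions compare with near misses. Regions with a peak in KO list 1 alone numbered 495 and had ARID1A in 7.47% of cases, and those in KO list 2 alone numbered 932 and had it in 5.79%. Regions with both KO peaks and a peak in WT list 2 only numbered 1171, with ARID1A in 13.2% (11.3 to 15.3), and those with WT list 1 only numbered 149, with 8.72% (4.73 to 14.5). H3K4me2 marked 53.5% in KO and 60.4% in WT of the 1171, as means of 3 libraries. On the limit of 1 kb, the nearest gained regions inside it lay 1011 bp from an end of Lsm14a and 1029 bp from an end of Ghr, the growth hormone receptor, with mean width percentiles of 31.6 and 26.5. The nearest outside lay 980 bp from an end of Ubtd1 and 979 bp from an end of C1s1, a complement protease gene, with percentiles of 40.5 and 17.2.

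Gained regions lay closer to gene ends than kept or lost ones did. The median distance to the nearest end of a protein-coding gene was 13412 bp (quartiles 3856 and 43142 bp), against 18110 bp for kept and 30395.5 bp for lost regions. Within 5 kb of an end were 28.8% of gained, 20.5% of kept and 14.2% of lost regions. Inside a protein-coding gene were 278 of the 462 (60.2%, 55.5 to 64.7), against 57.7% of kept and 48.8% of lost regions. The median distance between the centre of a gained region and that of the nearest kept region was 14304 bp, against 15357 bp from a kept region to another and 52700 bp from a lost region. A kept region lay within 10 kb of 202 gained regions (43.7%), and another gained one within 10 kb of 25 (5.41%), where neighbours at gene ends were counted too. By chromosome, leaving out Y with a single such region and 0 gained, gained regions made up between 1.70% (8 of 471) of the regions with both KO peaks on chromosome 12 and 6.28% (12 of 191) on the X chromosome.

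Of the 462, 348 (75.3%) had a protein-coding gene around them or within 10 kb, and they touched 427 genes. This is 1.95% of the 21887 protein-coding genes. A kept region also lay in or near 262 of the 427 (61.4%), and a lost one in or near 85 (19.9%). Of all protein-coding genes, 20.4% had a kept and 7.74% a lost region away from gene ends, and 17.5% of the genes with a kept one also had a lost one. No gene had 3 or more gained regions, and 16 had 2, among them F9, Serpinc1, Mbl2 (mannose-binding lectin, an innate immune plasma protein), Fam20a, Wwox and Arhgap26. In the fixed lists of 490 liver, growth and cell type genes, 30 genes (6.12%) had a gained region, against 1.95% of all protein-coding genes. A kept region lay at 54.9% of the listed genes, against 20.4% of all genes.

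Plasma proteins with complement and coagulation factors had the most genes with a gained region, 7 of 36, among them F9, Fga, Fgb and Serpinc1. Kept regions lay at 23 of the same 36. These counts are of genes and not of regions. A single region counted for both Fga and Fgb, another for both Itih1 and Itih3, and another for both Nr1i3 and Apoa2. Hepatocyte transcription factors had 3 of 25 (Cebpa, Foxa3 and Nr1i3), glucose handling 3 of 24 (Foxo3, Gbe1 and Insr), lipoproteins 2 of 25 (Apoa2 and Mttp), lipogenesis 2 of 19 (Dgat2 and Lpin2), and fatty acid oxidation 2 of 23 (Bdh1 and Ppargc1a). There were 2 of 28 in cytochrome P450 and conjugation (Ephx1 and Sult1a1), 2 of 15 in the growth hormone and IGF axis (Ghr and Igfbp4), 2 of 19 among clock genes (Arntl and Rora) and 2 of 19 in iron handling (Slc11a2 and Slc39a14). Single genes were Sds of amino acid catabolism, Aurka of the cell cycle and Arid1b of SWI/SNF, the paralogue of Arid1a. None of the 19 acute-phase, 18 bile acid, 20 immediate early, 20 growth arrest, 21 Hippo and Wnt or 20 unfolded protein and oxidative stress genes had one, and none of the fetal and biliary, endothelial, stellate or Kupffer cell markers.

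Cebpa, the gene of C/EBPα itself, had a gained region 1785 bp from its nearest end, at chr7:35116588-35117508. Its peak was 880 bp wide in KO list 1 and 841 bp in KO list 2, at percentiles 95.9 and 95.8, the sixth widest of the 462 by the mean. H3K4me2 covered 56.9%, 100% and 100% of it in KO libraries 1, 2 and 3 and 100% in each WT library, and no ARID1A peak overlapped it. Within 10 kb there were 2 other C/EBPα regions, both kept, and 1 of them had ARID1A.

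Albumin, the most abundant plasma protein, is encoded by Alb, and a gained region lay 10406 bp from its nearest end at chr5:90449683-90450464. Its peaks were 761 bp and 640 bp wide in KO lists 1 and 2, and 2148 bp separated its centre from the nearest kept one. H3K4me2 covered all of it in all 6 libraries, and an ARID1A peak shared 310 bp with it. Alb has long been known for an enhancer far upstream of its promoter, and whether this region is that element was not tested.

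The widest gained region, at chr13:41235657-41236799, lay 13045 bp from Smim13 with the start of the noncoding Gm32063 inside it. Its peaks were 1143 bp and 952 bp wide in KO lists 1 and 2. H3K4me2 covered 100%, 100% and 34.8% of it in KO libraries 1, 2 and 3 and all of it in the WT libraries. The next widest lay inside Cmip (percentiles 98.8 and 97.6 in KO lists 1 and 2), 14192 bp from Igfbp2, whose product binds insulin-like growth factors (96.8 and 97.7), inside Crlf2, a cytokine receptor subunit (96.5 and 97.3), and inside Zfp185 (96.0 and 97.4). Those inside Clasp1, which encodes a microtubule-binding protein, and Hs6st1, a heparan sulfate sulfotransferase, completed the 8 widest. All 8 had H3K4me2 in all 3 WT libraries, and Hs6st1 was the one with ARID1A. In Cmip the cover was 29.2%, 100% and 0% in KO libraries against 69.3%, 100% and 76.9% in WT libraries, so the KO values again enclosed the WT values.

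The lipid genes taken by width came next, while Apoa2, Bdh1 and Mttp had mean percentiles of 42.2, 35.8 and 32.5. The region inside Ppargc1a, the gene of the coactivator PGC-1α of fasting metabolism, had peaks of 802 bp and 827 bp at percentiles 93.9 and 95.5 in KO lists 1 and 2. A lost region lay within 10 kb of it and no kept one. Its H3K4me2 cover was 61.6%, 100% and 0% in KO libraries and 76.8%, 100% and 17.3% in WT libraries. The region inside Dgat2, whose enzyme makes triglycerides from diacylglycerol, had peaks of 827 bp and 609 bp and shared 304 bp with an ARID1A peak. H3K4me2 covered 42.2%, 100% and 60.6% of it in KO libraries and 100% in each WT library, so 1 KO library reached the WT value and 2 stayed under it. In Lpin2, the region with the internal promoter printed above had peaks of 759 bp and 637 bp, with cover of 31.5%, 100% and 100% in KO and 100%, 100% and 19.5% in WT. A region 25044 bp from Fads2, the gene of a fatty acid desaturase, had ARID1A over 245 bp, and its cover was 0%, 100% and 15.8% in KO against 94.0%, 100% and 75.3% in WT. Another gained region lay within 10 kb of that one.

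Glucose and amino acid genes followed. Foxo3, a forkhead factor restrained by insulin signalling, held a gained region with peaks of 505 bp and 702 bp, with cover of 42.2%, 100% and 41.5% in KO and 70.0%, 100% and 100% in WT. Gbe1, the glycogen branching enzyme gene, held one whose centre lay 678 bp from the centre of the nearest kept region. Near Sds and Sdsl, which encode serine dehydratases, a region with ARID1A over 357 bp had cover of 15.7%, 100% and 0% in KO and 100%, 100% and 28.5% in WT. The region inside Fto, an RNA demethylase gene, had the longest overlap with ARID1A among those named here, 494 bp.

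The regions named at Fgb, F9 and Serpinc1 had uneven or no H3K4me2, unlike the Alb region, which was fully covered in all 6 libraries. Between Fga and Fgb, which encode fibrinogen chains, a region lay 2155 bp from Fgb with peaks of 556 bp and 306 bp, at percentiles 77.7 and 17.97. It shared 303 bp with an ARID1A peak and had 3 kept regions within 10 kb, the nearest at 732 bp between centres. Inside F9, the coagulation factor IX gene, the wider of 2 gained regions had cover of 0%, 2.53% and 0% in KO libraries and 0%, 100% and 0% in WT libraries, so both marks came from the libraries numbered 2. A region 4054 bp from Serpinc1, the antithrombin gene, lay inside Zbtb37. It had no H3K4me2 peak in any library, and its peak percentiles were 11.2 and 73.4. The other gained region at Serpinc1, chosen later, lay inside the gene and had H3K4me2 in 2 KO and 3 WT lists. Its peak percentiles were 7.12 and 17.2.

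Clock and detoxification genes made up the rest of those named. H3K4me2 covered the Arntl region fully in all 6 libraries, and its peaks were 416 bp and 525 bp wide in KO lists 1 and 2. The Sult1a1 region shared 313 bp with an ARID1A peak, and its cover was 9.41%, 100% and 100% in KO and 100%, 100% and 96.3% in WT. Ephx1, the gene of microsomal epoxide hydrolase, held a region with ARID1A over 286 bp, with cover of 100% in each KO library and 100%, 100% and 23.9% in WT. At Nr1i3 and Apoa2, neighbours that encode the xenobiotic receptor CAR and an apolipoprotein, 1 region had peaks at percentiles 1.67 and 82.7, the widest gap between KO lists among those named. Slc39a14, a transporter gene of zinc and iron, held one with a mark in KO library 2 alone (33.3% of it covered).

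**Figure D5:**
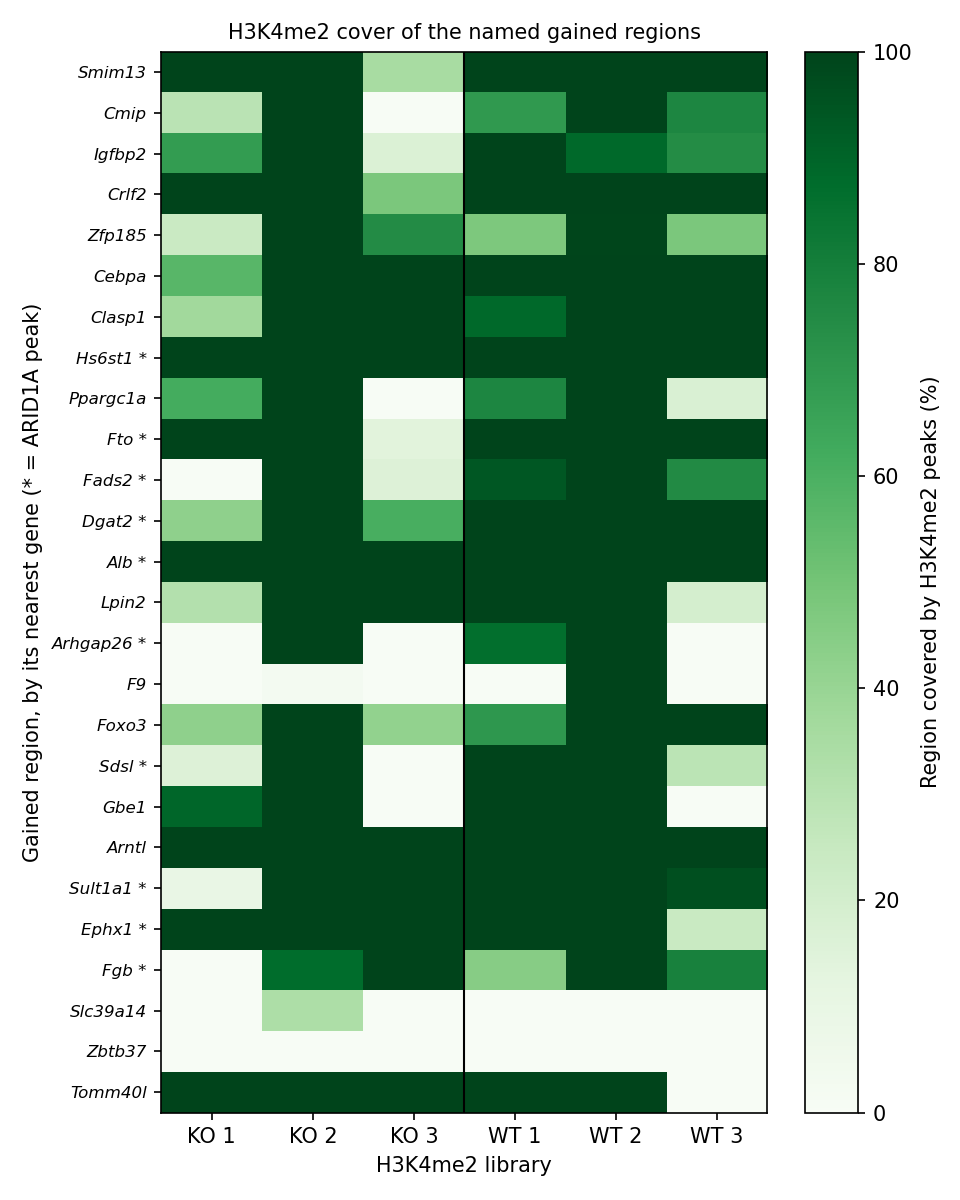
Each row is 1 of the 26 named gained regions, by its nearest gene and in order of peak width percentile, and each column an H3K4me2 library (KO left, WT right). Colour gives the percentage of the region under H3K4me2 peaks, and an asterisk marks an ARID1A peak; rows from Smim13 to Hs6st1 are marked in all WT libraries, while the Zbtb37 row, the region near Serpinc1, is empty in all 6.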

How the data were processed

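Per the submitters' processing notes, the build was mm10. The same notes name MACS2 2.0.10.20131216, Bowtie2 2.2.3, HOMER and Picard, with no roles. The deposited C/EBPα and V5 lists hold positions and names of peaks, with no score. The deposited H3K4me2 lists add the authors' fold enrichment, score, −log10 p and −log10 q of each broad peak. The −log10 q was used only as a rank within its list, except for 1 stricter threshold of 2, and the authors' fold and score values were not used for any result. Per the labels, H3K4me2 libraries came from another kit and instrument than the C/EBPα and V5 libraries. Depth is unknown, since the sources used here give no read numbers. A feature missing from a list had no peak called or kept there.

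Peaks were merged and overlapped with Python 3.11.15, pandas 2.3.3, numpy 2.4.6 and scipy 1.17.1, and an overlap needed 1 bp. Gene ends were those of 21887 protein-coding genes of RefSeq GRCm38.p6, and coordinates count from 1. KO and WT were compared with exact permutation tests over 3 against 3 H3K4me2 libraries, two-sided, which cannot go below 0.1. The labels do not say whether libraries came from separate mice, so p-values measure only the spread between these libraries. Shares have exact Clopper-Pearson 95% intervals, which cover counting of regions only. The limit given for a count of 0 is the upper end of that interval. The class rule and the permutation test were tested on simulated lists.

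The regions, the 23 gene lists with 490 genes and the markers were chosen with earlier results of these data known. Named are the 8 gained regions with the widest KO peaks, up to 15 at genes of the lists, up to 6 with ARID1A, and 2 on each side of the 1 kb limit; any other is said to be chosen later. Alternatives were the merge overlap, the distance to gene ends, peak width, list size, the H3K4me2 threshold and overlap, and each library left out. No genome was used, so motif and base composition were read in RefSeq promoter windows alone. Peak lists cannot show whether Arid1a was deleted.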

Additional observations from a re-analysis of the deposited data

How the results depend on the processing

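The number of gained regions was the result that depended most on the lists. It was 1080 with the 16178 widest peaks of every list, and between 611 and 1644 when 1 C/EBPα library was left out (1408 without KO library 1, 965 without KO library 2, 611 without WT library 1 and 1644 without WT library 2). It lay between 329 and 530 under the other 5 alternatives. The ARID1A share was 6.06% with V5 peaks at least as wide as their median, between 7.53% and 12.6% when 1 C/EBPα library was left out, and within the interval of the main value otherwise. In each of those settings it was under the share of kept regions. The H3K4me2 difference between KO and WT was negative in 19 of 20 alternatives, from -17.4 to -0.253 points, and 1.26 points without KO library 1; p lay between 0.2 and 1, and the H3K4me2 leave-one-out values reached from -14.2 to 1.26. The contrast with kept regions was positive in 21 of 21 alternatives, with p between 0.1 and 0.333, and that with lost regions in 20 of 20, with p between 0.1 and 0.8. The difference in the median percentile of −log10 q changed sign in 4 of the 6 leave-one-out settings, which ranged from -7.13 to 9.19 (without KO library 2 it was -1.55, without KO library 3 -7.13, without WT library 1 -2.93 and without WT library 3 -0.178). Regions marked in all KO lists and no WT list numbered between 0 and 3 with 1 library left out (3 without KO library 1), and those with the reverse between 0 and 13 (13 without KO library 2 and 5 without WT library 1). The cause of these changes was not tested. Deviations of libraries with the same number had r of 0.101, 0.278 and 0.0777. KO libraries 2 and 3 correlated best with the WT library of their own number, and KO library 1 with WT library 3 (0.155). The labels do not say whether the numbers mark a shared batch, and this was not tested. With the replicate block, a sign-flip test over 3 pairs whose smallest p is 0.25, the share difference of -5.27 points had p = 0.75, and the contrasts of 8.19 and 15.1 points with kept and lost regions had p = 0.25 each (exact tests); the percentile difference of 0.172 had p = 1. GC content and motifs over whole regions were not run, because no genome was used. Depth is unknown and limits every statement on absence.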
